A study of Solanum lycopersicum with 6 samples.

Results

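The genes described here encode the heat shock proteins (HSPs) and the heat stress transcription factors (HSFs) of tomato. They were taken as every row of the deposited gene table whose description holds "heat shock" or "heat stress transcription factor", whatever its symbol, which gave 96 of 36224 rows. By description, 31 are small HSPs, 20 are HSP70, 6 are HSP90 and 28 are HSFs, and 11 are other proteins of the heat response. Their transcripts were measured by RNA sequencing in pericarp, the fruit wall, of the cultivar Ailsa Craig at 37 days after anthesis. The groups were wild-type plants (WT, 3 libraries) and transgenic plants labelled JMJ6-OE (3 libraries), in which SlJMJ6 is overexpressed. SlJMJ6 is a histone demethylase that the study's title names in fruit ripening and in the removal of H3K27 methylation. Both grew in a greenhouse at 23 °C, and the labels name no heat treatment. They do not give the promoter of the transgene. They speak of transgenic lines without saying which line a library came from, or whether replicates came from separate plants, so p-values measure only the spread between these libraries.

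HSPs are chaperones that keep other proteins from misfolding. Small HSPs bind unfolding proteins without using ATP and hold them in a soluble state, HSP70 proteins refold their clients in cycles of ATP hydrolysis with the help of DnaJ partners, and HSP90 proteins act on later stages of folding, with signalling proteins among their clients. HSP70 and HSP90 families each hold constitutive members, often called cognate, which are present in unstressed cells, and members that are induced by heat. HSFs bind the promoters of HSP genes. In tomato HSFA1 is known as the master regulator that starts the heat response, HSFA2 as a factor that accumulates during it, and class B factors lack the activation motif of class A. Transcripts of some small HSPs, HSP21 of the chloroplast among them, are also known to accumulate in tomato fruit as it ripens without heat.

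The libraries held 28539410 to 36487547 counts. The row taken as JMJ6 by its place on chromosome 6 (Solyc06g008490.3), a match that is uncertain since the table gives it the symbol JMJ703 and describes it as JMJ16, stood at 26.9, 23.5 and 25.5 CPM (counts in each 1000000 of TMM-scaled library size) in WT and at 31.5, 37.4 and 41.3 CPM in JMJ6-OE. Its log2 fold change, called the log2 difference where values stand beside it, was 0.54 ± 0.12 (SE, adjusted p = 0.014). The call did not hold without WT replicate 2 (adjusted p = 0.054) or without JMJ6-OE replicate 2 (adjusted p = 0.055). The fruit markers fixed for the check of the tissue were all detected. All 8 were higher in JMJ6-OE, against 17.5% of all tested genes. Among them the transcript of E8, a gene known for its rise with ethylene in ripening fruit (Solyc09g089580.3), stood at 530.5, 803 and 610.0 CPM in WT and at 5400.1, 9404 and 11139 CPM in JMJ6-OE. Ripening stage and genotype therefore cannot be told apart in any difference given here. In pericarp as a whole, more RNA per cell and more cells of a type cannot be told apart either.

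Of the 96 rows, 12 had no count in any library and 72 passed the filter on low counts. A library floor of 3 counts corresponds to 0.082 to 0.11 CPM. At an adjusted p under 0.05 (edgeR quasi-likelihood test, Benjamini-Hochberg), JMJ6-OE had higher levels of 42 of the 72 tested members and lower levels of 13. Among all 20143 tested genes 17.5% were higher, 16.8% were lower and 34.3% were called in either direction, while 58.3% of the tested members were higher and 18.1% lower. The share of members called lower was thus near that of all genes. The median log2 fold change was 0.59 over the tested members and -0.01 over all tested genes. The filter's level was 0.29 CPM on library totals without TMM factors. HSFA2B reached it in every JMJ6-OE library and in no WT library, while HSP15.4 (Solyc02g080410.3) and an HSP18.1 gene (Solyc10g086680.1) reached it in every WT library but not in every JMJ6-OE library. Among the 84 members with any count, tested without that filter, 41 were higher and 14 lower. Of all 25334 genes tested in that fit, 3368 were higher and 3220 lower.

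**Figure D1:**
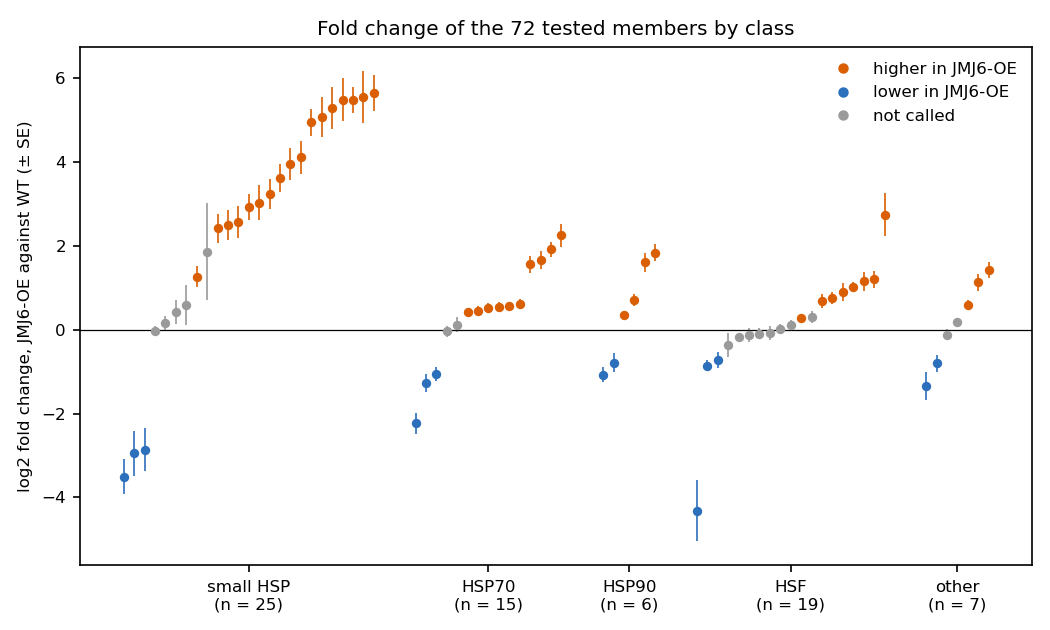
Log2 fold change (JMJ6-OE against WT, with its SE) of each tested member, ordered by size within each class. Points above the line at 0 are higher in JMJ6-OE. Small HSPs reach 5.65 at the top, the HSP70 and HSP90 classes hold called members on both sides, and the 8 HSFs without a call lie between -0.36 and 0.31.

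Small HSPs held the largest increases of the 5 classes. Of 31 rows, 25 were tested, 17 rose and 3 fell (68% and 12%, against 17.5% and 16.8% of all genes). All of these 20 changed by at least 2-fold, against 1163 of 3517 higher and 1806 of 3394 lower among all tested genes. In each of the 17 the lowest JMJ6-OE library exceeded the highest WT library. Every called member of any class was likewise free of overlap, so this adds nothing to the call. The share without overlap over all genes is not given here. The summed level of the class, in FPKM (fragments per kilobase of transcript in each 1000000 of library size, a unit that allows comparison between genes), was 642, 749.8 and 584 in WT and 3266, 5409 and 6498 in JMJ6-OE, so the class total was 7.68-fold higher. In CPM, a unit with no correction for length, the sums were 471.2, 511.2 and 412.5 in WT and 2179.9, 3876 and 4806 in JMJ6-OE.

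The most abundant small HSP by FPKM was a class I gene of chromosome 6, HSP17.5-M (Solyc06g076570.3), a protein of the cytosol. Its transcript stood at 117, 114 and 100.4 CPM in WT and at 491, 864 and 1176 CPM in JMJ6-OE. The groups lay far apart, and the log2 fold change was 2.93 ± 0.31 (adjusted p = 0.0010). It ranked first among all small HSPs in FPKM in both groups, with 31.4% of their total in WT and 26.9% in JMJ6-OE. A neighbour with the same symbol (Solyc06g076560.2) went from 30.7, 55.3 and 42.0 CPM to 422, 799 and 996 CPM, and its log2 fold change of 4.11 ± 0.39 (adjusted p = 8.3e-04) was the larger of the pair. Another gene of this cluster (Solyc06g076540.1) was scarce in WT, at 0.88, 1.05 and 1.11 CPM, and reached 12.7, 4.04 and 8.30 CPM in JMJ6-OE (log2 difference 3.04 ± 0.42, adjusted p = 0.0023). This was the 1 member of the 17 in which JMJ6-OE replicate 1 was the highest of its group. The remaining one (Solyc06g076520.1) did not pass the filter. These genes lie close together and encode similar proteins, so the counting could have divided their reads among them, and their separate values are uncertain.

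Elsewhere in class I, 3 genes rose, 1 fell and 2 were not called. HSP18.2 on chromosome 9 (Solyc09g015000.3) stood at 26.4, 39.0 and 26.2 CPM in WT and at 264, 512 and 648 CPM in JMJ6-OE (log2 difference 3.96 ± 0.38, adjusted p = 9.2e-04). Its neighbour HSP17.4A (Solyc09g015020.1) rose by 2.57 ± 0.38 and an HSP18.1 gene of chromosome 2 (Solyc02g093600.3) by 2.42 ± 0.34. HSP18.5-C (Solyc09g011710.3) stood apart as an abundant class I gene without a call. It held 24.9% of the summed FPKM of all small HSPs in WT and ranked second among them, at 173, 137 and 122 CPM. In JMJ6-OE it held 3.16% and ranked seventh, at 137, 188 and 158 CPM. The groups overlapped (log2 fold change 0.15 ± 0.16, adjusted p = 0.50), and the sign of this small value was negative when libraries were scaled by their totals alone (-0.034). Another HSP18.1 gene, on chromosome 10 (Solyc10g086680.1), fell from 1.39, 3.96 and 1.78 CPM to 0.37, 0.18 and 0.37 CPM (log2 fold change -2.95 ± 0.53, adjusted p = 0.0057).

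Both directions were seen among class II genes, which form a separate family in the cytosol. The HSP17.9-D gene described as HCT2 (Solyc08g062340.3) stood at 0.44, 0.83 and 0.77 CPM in WT and at 15.4, 31.2 and 46.9 CPM in JMJ6-OE, a 44.8-fold increase (log2 5.49 ± 0.51, adjusted p = 8.3e-04). Its neighbour of the same symbol, described as Le-HSP17.6 (Solyc08g062450.1), rose by 3.62 ± 0.33. The remaining class II gene (Solyc07g055720.3), described from a cacao protein, fell from 9.57, 17.3 and 9.08 CPM to 1.61, 0.65 and 0.89 CPM (log2 fold change -3.51 ± 0.41, adjusted p = 0.0013). Its identifier follows that of HSFA4C, a factor that fell as well and is described with the HSFs.

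Small HSPs of the organelles rose as well. HSP21 of the chloroplast (Solyc03g082420.3), which protects photosystem II and is one of the small HSPs known from ripening tomato fruit, stood at 7.88, 18.8 and 13.2 CPM in WT and at 289, 572 and 717 CPM in JMJ6-OE. No library of 1 group came near the other, and the increase was 39.5-fold (log2 5.30 ± 0.50, adjusted p = 0.0010). HSP21 moved from the eighth to the fourth place among all small HSPs in FPKM, with 10.5% of their total in JMJ6-OE. A second row with the symbol HSP21 on chromosome 5 (Solyc05g014280.3), described only as a small HSP, had the lowest adjusted p of all members. It stood at 0.68, 1.13 and 1.39 CPM in WT and at 35.7, 59.5 and 51.02 CPM in JMJ6-OE (log2 difference 5.49 ± 0.31, adjusted p = 1.0e-04). The mitochondrial HSP26.5 (Solyc12g042830.2) went from 2.94, 3.43 and 1.60 CPM to 65.9, 101.2 and 78.3 CPM (log2 4.95 ± 0.32, adjusted p = 2.1e-04). HSP23 of the mitochondrion (Solyc08g078695.1) rose by 3.24 ± 0.35. The peroxisomal HSP15.7 (Solyc04g014480.3), already at 22.2, 21.0 and 18.5 CPM in WT, reached 32.0, 49.5 and 66.4 CPM, and its 1.26 ± 0.25 was the smallest increase among the small HSPs called higher.

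The genes described as class IV hold the largest fold change of the small HSPs. HSP22.7 of chromosome 1 (Solyc01g102960.3) stood at 1.89, 4.36 and 2.19 CPM in WT and at 92.8, 158 and 179.5 CPM in JMJ6-OE, a 50.3-fold increase (log2 5.65 ± 0.44, adjusted p = 5.3e-04). HSP22.0 of chromosome 3 (Solyc03g113930.2) was more variable in WT, at 0.30, 2.23 and 0.98 CPM, against 37.6, 62.9 and 71.6 CPM in JMJ6-OE (log2 5.56 ± 0.62, adjusted p = 0.0018, and 6.38 without WT replicate 2). The HSP22.7 gene of chromosome 11, described as a precursor with no class stated (Solyc11g020330.1), went from 5.48, 11.2 and 5.33 CPM to 146, 257 and 339.6 CPM (log2 5.07 ± 0.48, adjusted p = 0.0010). The class III gene HSP17.4B (Solyc03g123540.3), at 0.37, 0.28 and 0.31 CPM in WT, rose by 2.49 ± 0.36. The class V gene HSP15.4 (Solyc02g080410.3) fell from 1.32, 1.10 and 1.52 CPM to 0.12, 0.09 and 0.33 CPM, which is near the floor (log2 fold change -2.87 ± 0.51, adjusted p = 0.0057). With JMJ6-OE replicate 3 left out it was -3.58. The remaining 4 small HSPs that were tested were not called, with adjusted p from 0.25 to 0.83.

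**Figure D2:**
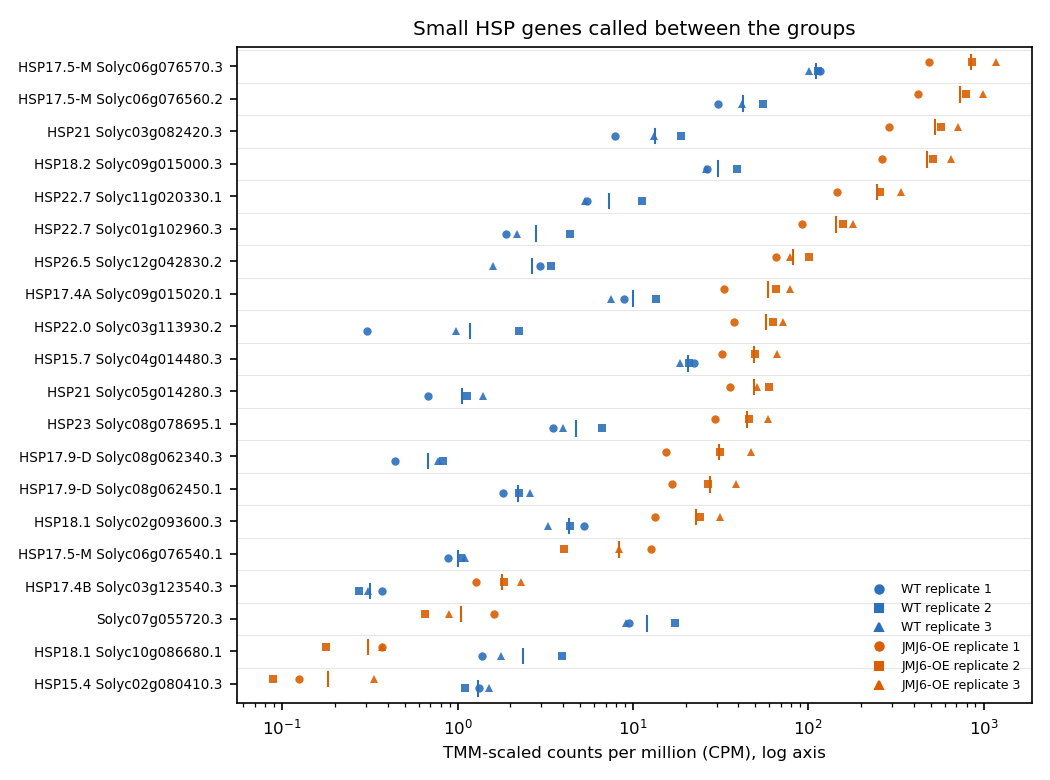
TMM-scaled CPM (log axis) of the 20 small HSP genes called between the groups. Each symbol is 1 library and each short bar the mean of 3. In the upper 17 rows all JMJ6-OE points lie to the right of all WT points, and in the lower 3 to the left.

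The libraries of a group differed in a shared way. JMJ6-OE replicate 1 was the lowest of its group for 16 of the 17 small HSPs called higher, and JMJ6-OE replicate 3 the highest for 14. In WT, replicate 2 was the highest for 10 of 17 and the lowest for 1. Of the 8 fruit markers, JMJ6-OE replicate 1 was the lowest of its group for 7 and JMJ6-OE replicate 3 the highest for 7. The exception to both was the polygalacturonase gene PG2 (Solyc10g080210.2), at 4061, 5099.8 and 3867 CPM in JMJ6-OE. The part of ripening stage in this spread was not tested. Without JMJ6-OE replicate 1, as with all libraries, 17 small HSPs were called higher.

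Seeds also carry small HSP transcripts, and their markers were therefore listed. They were taken as 46 rows with names of storage proteins or oleosins in their descriptions, not all of which need be seed genes. Of these rows, 17 had no count and 11 were tested. Of the tested rows, 1 rose and 3 fell (9.09% and 27.3%, against 17.5% and 16.8% of all genes). Vicilin, legumin and 11S globulin, the main storage proteins, are described in 18 rows, 7 of which had no count. Together they summed to 3.5 to 4.16 CPM in WT and to 3.83 to 5.19 CPM in JMJ6-OE. The whole list summed to 148.1 to 174.7 CPM in WT and to 114.6 to 122.7 CPM in JMJ6-OE, and 1 row decided this order. It was a basic 7S globulin-like gene (Solyc01g080020.2), which fell from 145.5, 125.7 and 118.6 CPM to 68.4, 37.0 and 32.8 CPM. Without it the list summed to 29.2, 38.2 and 29.6 CPM in WT and to 51.3, 77.6 and 89.9 CPM in JMJ6-OE. The marker that rose was an oleosin 1-like gene (Solyc06g060840.1), from 4.12, 7.41 and 4.40 CPM to 24.8, 51.8 and 61.9 CPM. Without both of these rows the sums were 25.0, 30.8 and 25.2 CPM in WT and 26.5, 25.8 and 28.0 CPM in JMJ6-OE, and the groups overlapped. Both rows were picked by their own changes, after their values were seen, so nothing is drawn from that overlap. The part of seed RNA in the small HSP values was not tested.

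In the HSP70 class the leading cognate gene fell while several others rose. Of 20 rows, 15 were tested, 10 rose and 3 fell (66.7% and 20%, against 17.5% and 16.8% of all genes). The share that fell was thus near that of all genes. The most abundant by FPKM was HSC-2 of chromosome 9 (Solyc09g010630.3), described as heat shock cognate 70 kDa protein 2-like, at 5313, 3478 and 4438 CPM in WT and at 2144, 1637 and 1682 CPM in JMJ6-OE. All WT libraries exceeded all JMJ6-OE libraries, and the transcript was 2.42-fold lower (log2 fold change -1.28 ± 0.21, adjusted p = 0.0041). It held 65.7% of the summed HSP70 FPKM in WT and 32.3% in JMJ6-OE. A second HSC-2 row (Solyc10g086410.3) fell from 73.2, 57.7 and 91.1 CPM to 37.1, 35.9 and 33.3 CPM (-1.06 ± 0.16, adjusted p = 0.0031). HSC-I (Solyc06g076020.3), described as cognate 70 kDa protein 1, fell from 60.1, 68.4 and 102 CPM to 12.3, 18.5 and 18.3 CPM (-2.23 ± 0.25, adjusted p = 0.0013).

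Another row with the symbol HSC-I (Solyc11g066060.2) did not pass the test. It stood at 226, 265 and 276 CPM in WT and at 235, 363 and 237 CPM in JMJ6-OE, ranges that overlap (log2 fold change 0.12 ± 0.19, adjusted p = 0.65). Its sign was negative without JMJ6-OE replicate 2 (-0.11), so no direction can be given. Not every gene described as cognate fell, since the cognate 70 kDa gene of chromosome 11 with the symbol HSP70 (Solyc11g066100.2) had the largest increase of the class. It went from 128, 159 and 118 CPM to 403, 709 and 811 CPM, a 4.75-fold increase (2.25 ± 0.27, adjusted p = 0.0016), and from the seventh to the second place in FPKM.

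The other HSP70 genes with large increases were those of the cytosol without the word cognate. HSP70 of chromosome 11 (Solyc11g020040.2) stood at 164, 209 and 163 CPM in WT and at 409, 587 and 712 CPM in JMJ6-OE (log2 difference 1.67 ± 0.22, adjusted p = 0.0017). The gene described as HSP70-3 on chromosome 4 (Solyc04g011440.4) went from 209.9, 213 and 223 CPM to 436, 704 and 765 CPM (1.56 ± 0.21, adjusted p = 0.0018). HSP70-8 (Solyc09g075950.1) went from 25.8, 24.6 and 21.4 CPM to 67.9, 97.0 and 107 CPM (1.92 ± 0.18, adjusted p = 4.9e-04). These 3 and the gene above are the HSP70 genes that rose by at least 2-fold.

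HSP70 genes of the organelles and of the large HSP110-like type changed by less than 2-fold or were not called. The stromal HSP70 of the chloroplast (Solyc01g103450.3), second of the class in WT, stood at 860, 814 and 824 CPM in WT and at 696, 841 and 891 CPM in JMJ6-OE. The groups overlapped (log2 fold change -0.04 ± 0.13, adjusted p = 0.84), and the sign turned without JMJ6-OE replicate 1 (0.062). The mitochondrial pair with the symbol HSP68 rose by 0.55 ± 0.12 (Solyc01g106210.3) and 0.56 ± 0.10 (Solyc01g106260.3). The first of these calls failed when JMJ6-OE replicate 2 was left out (adjusted p = 0.052). HSP70-17 (Solyc07g043560.3) rose by 0.61 ± 0.12 and HSP70-16 (Solyc02g080470.3) by 0.41 ± 0.08, and the HSP70-16 call was lost with scaling by library totals (0.22, adjusted p = 0.085). The HSP70-14 neighbours of chromosome 12 rose by 0.53 ± 0.12 (Solyc12g043120.2) and 0.45 ± 0.11 (Solyc12g043110.2). With JMJ6-OE replicate 2 left out neither call held (adjusted p of 0.054 and 0.072), and the second also failed without WT replicate 2 (0.061) or JMJ6-OE replicate 3 (0.056). Each of these pairs consists of similar genes, among which reads could have been divided.

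In the HSP90 class, too, the leading cognate gene fell. All 6 rows were tested, 4 rose and 2 fell (66.7% and 33.3%, against 17.5% and 16.8% of all genes). HSC80 (Solyc07g065840.2), the constitutive HSP90 of the cytosol, stood at 3979, 2838 and 3215 CPM in WT and at 1781, 1433 and 1532 CPM in JMJ6-OE. It was 2.11-fold lower, with no overlap (log2 fold change -1.08 ± 0.18, adjusted p = 0.0043), and its share of the summed HSP90 FPKM was 84.8% in WT and 61.7% in JMJ6-OE. An HSP83A gene described as HSP83 (Solyc03g007890.3) went from 58.6, 70.2 and 59.1 CPM to 129, 200.05 and 244 CPM (1.61 ± 0.23, adjusted p = 0.0029). The HSP83A gene described as HSP90 (Solyc06g036290.3) went from 8.55, 11.97 and 11.1 CPM to 28.6, 45.5 and 39.0 CPM (1.84 ± 0.20, adjusted p = 8.9e-04). Those 2 were the HSP90 genes that rose by at least 2-fold.

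The chloroplast HSP90-5 (Solyc05g010670.3), second in the class, stood at 392, 489.8 and 484 CPM in WT and at 622, 782 and 826 CPM in JMJ6-OE (0.71 ± 0.15, adjusted p = 0.011). The mitochondrial HSP90-6 (Solyc07g047790.3) went from 136, 159.9 and 152 CPM to 183, 197 and 194 CPM (0.36 ± 0.09, adjusted p = 0.022). Its call did not hold without WT replicate 1 (adjusted p = 0.057), WT replicate 3 (0.082), JMJ6-OE replicate 2 (0.088) or JMJ6-OE replicate 3 (0.063), or with scaling by library totals (0.16, adjusted p = 0.22). The assembled locus MSTRG.3246, described as HSP81-1 from Brachypodium, fell by 0.79 on the log2 scale, from 7.30, 6.51 and 6.25 CPM to 4.49, 4.40 and 2.67 CPM (adjusted p = 0.033). The table assigns it the KEGG orthologue of an acyl-CoA synthetase, so its place in the class is doubtful. Its call was lost without WT replicate 1 (adjusted p = 0.089), WT replicate 2 (0.082), WT replicate 3 (0.065), JMJ6-OE replicate 2 (0.063) or JMJ6-OE replicate 3 (0.054).

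**Figure D3:**
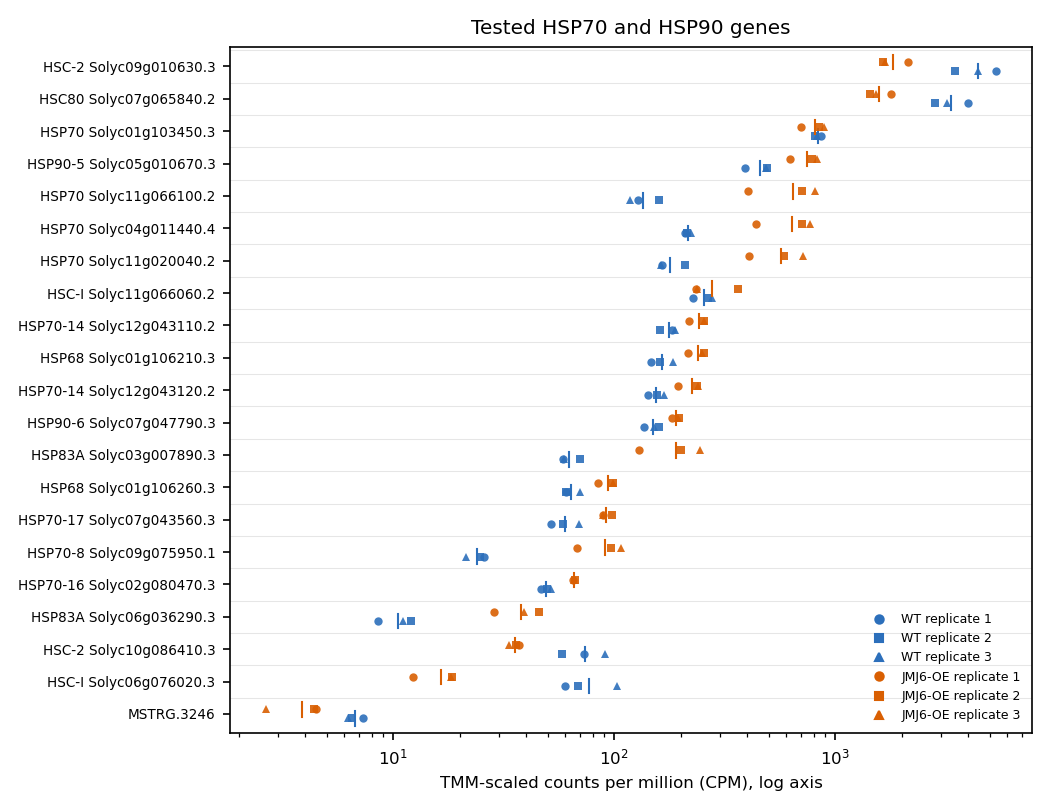
TMM-scaled CPM (log axis) of the tested HSP70 and HSP90 genes, with 1 symbol per library and a short bar at each group mean. HSC-2 (Solyc09g010630.3) and HSC80 lie higher in WT, while HSP70-8, the HSP83A genes and the HSP70 genes of chromosomes 4 and 11 lie higher in JMJ6-OE. The groups overlap for the stromal HSP70 (Solyc01g103450.3) and for HSC-I (Solyc11g066060.2).

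Summed over a class, these opposite changes met. The summed HSP70 FPKM was 3222, 2612 and 3016 in WT and 2127, 2239.99 and 2227 in JMJ6-OE. On TMM-scaled CPM, the HSP70 sums overlapped, at 7689, 5937 and 6987 in WT and 5305, 6003 and 6253 in JMJ6-OE. Without the HSC-2 gene of chromosome 9, the summed FPKM was 946.5, 1040.2 and 1050.5 in WT and 1240.2, 1613 and 1612 in JMJ6-OE. The order of the groups thus turned when that gene was left out. For HSP90, the sum was 1910.5, 1558 and 1683 in WT and 1069, 939.4 and 954.4 in JMJ6-OE, and without HSC80 it was 222.7, 287.2 and 271.8 against 339.5, 395.6 and 399.8. All members together summed to 6615, 5930.3 and 6209 FPKM in WT and to 7556, 9879 and 11005 FPKM in JMJ6-OE. In percent of each library's counts, where long genes weigh more, the members took 1.469, 1.267 and 1.375 in WT and 1.209, 1.382 and 1.455 in JMJ6-OE, ranges that overlap.

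**Figure D4:**
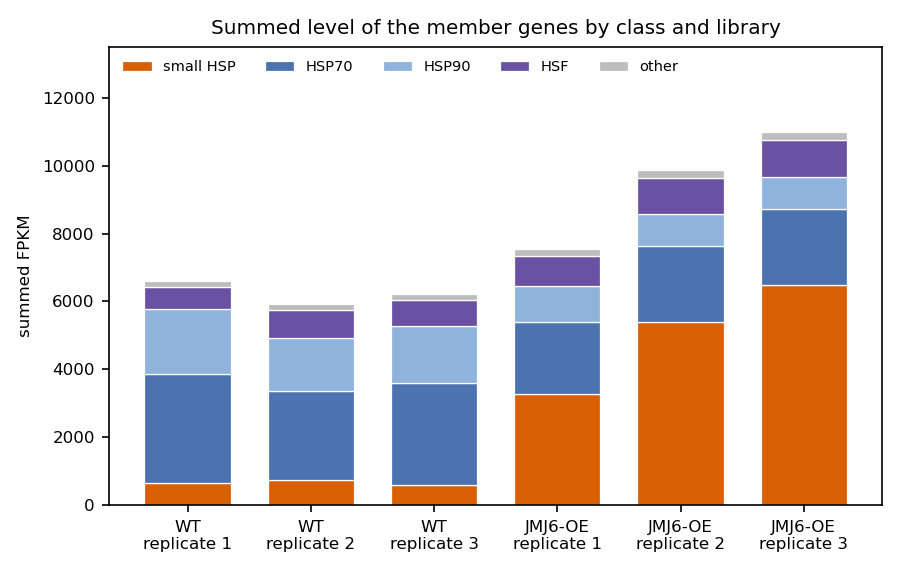
Summed FPKM of the member genes in each library, stacked by class from the base at 0. Small HSPs take 584 to 749.8 FPKM of the WT bars and 3266 to 6498 FPKM of the JMJ6-OE bars, while the HSP70 and HSP90 parts are shorter in JMJ6-OE.

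The HSFs, the transcription factors that act on HSP genes, had smaller log2 fold changes than the small HSPs, a difference that was not tested. Of 28 rows, 19 were tested, 8 rose and 3 fell (42.1% and 15.8%, against 17.5% and 16.8% of all genes). The share that fell was thus near that of all genes. At least 2-fold changes were seen in 4 of the 8 that rose and 1 of the 3 that fell. Among all tested genes they were seen in 1163 of 3517 higher and 1806 of 3394 lower. The median log2 fold change was 0.11 for the HSFs and 2.93 for the small HSPs. The summed HSF level was 650.1, 815.4 and 751.9 FPKM in WT and 878.5, 1062 and 1071 FPKM in JMJ6-OE. That difference rested on the neighbouring HSFA6b rows, whose reads may be counted in both. Without 1 of them (Solyc06g053950.2) the sum was 548.6, 638.2 and 610.6 FPKM in WT and 653.1, 770.2 and 777 FPKM in JMJ6-OE, with no overlap. Without both rows the sum was 443.9, 474.1 and 470.6 FPKM in WT and 427.5, 476.8 and 480.3 FPKM in JMJ6-OE, and the groups overlapped. The count of HSFs called higher was 5 without JMJ6-OE replicate 2 and 5 without JMJ6-OE replicate 3.

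Among the class A factors, which carry an activation motif, a gene described as A-1 (HSFA1, Solyc03g097120.3) stood at 89.4, 88.8 and 83.1 CPM in WT and at 117, 151 and 173 CPM in JMJ6-OE (log2 difference 0.76 ± 0.14, adjusted p = 0.0069). HSF8, the tomato factor also known as HSFA1A (Solyc08g005170.3), stood at 27.5, 24.9 and 25.5 CPM against 30.3, 32.2 and 31.8 CPM. Its 0.28 ± 0.09 was barely called (adjusted p = 0.044). The call held without JMJ6-OE replicate 1 but in no other fit with 1 library left out (adjusted p from 0.056 without WT replicate 1 to 0.163 without WT replicate 2, with 0.158 without WT replicate 3, 0.147 without JMJ6-OE replicate 2 and 0.105 without JMJ6-OE replicate 3). It was also lost with scaling by library totals (0.09, adjusted p = 0.43), with upper-quartile scaling (0.089), without the filter on low counts (0.057), with a replicate block (0.093) and with limma on FPKM (0.43). The factor HSF30, known as HSFA2 (Solyc08g062960.3), stood at 206, 215 and 187 CPM in WT and at 202, 267 and 283 CPM in JMJ6-OE. These ranges overlap and the test was not passed (0.31 ± 0.14, adjusted p = 0.13), though it was without JMJ6-OE replicate 1 (0.45, adjusted p = 0.011).

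A gene described as A-2-like, also with the symbol HSF30 (Solyc07g040680.3), had the lowest adjusted p among the HSFs. It went from 11.9, 10.02 and 10.4 CPM to 22.3, 19.6 and 23.3 CPM, close to a doubling (log2 fold change 1.01 ± 0.12, adjusted p = 0.0012). The most abundant factors by FPKM were the neighbouring HSFA6b rows of chromosome 6. One (Solyc06g053960.3) stood at 123, 183 and 159 CPM in WT and at 275, 386 and 409 CPM in JMJ6-OE (1.20 ± 0.20, adjusted p = 0.0042), and the other (Solyc06g053950.2) rose by 1.15 ± 0.22. Their FPKM were close in every library, at 225.66 and 225.40 in JMJ6-OE replicate 1 and, where they lay farthest apart, 164.06 and 177.23 in WT replicate 2. Reads of these neighbours could have been divided or counted in both, and their separate values are uncertain. HSFA2B, described as A-7a (Solyc09g065660.3), rose by 2.74 ± 0.51 from 0.10, 0.18 and 0.05 CPM, at the floor of detection, to 0.77, 0.83 and 0.67 CPM.

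Both class A factors that fell were called in every fit that left out a library. HSFA3 (Solyc09g009100.3), a factor known from Arabidopsis to act in the later heat response, stood at 149.6, 169 and 148 CPM in WT and at 100.7, 83.9 and 73.4 CPM in JMJ6-OE (log2 difference -0.86 ± 0.13, adjusted p = 0.0029). HSFA4C (Solyc07g055710.3) showed the largest decrease of all members, 20.0-fold (-4.32 ± 0.73, adjusted p = 0.0072). Its WT libraries varied widely, at 7.94, 16.6 and 35.4 CPM, against 0.81, 1.69 and 0.44 CPM in JMJ6-OE. The groups did not overlap. Its log2 value was -3.66 without WT replicate 3 and -4.97 without JMJ6-OE replicate 2. The neighbour by identifier, the class II small HSP Solyc07g055720.3, was 11.4-fold lower. This pairing was noticed after the values were seen.

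Outside class A, HSF24, known in tomato as HSFB1 (Solyc02g090820.3), stood at 51.8, 71.3 and 72.9 CPM in WT and at 86.3, 110.5 and 119 CPM in JMJ6-OE (0.69 ± 0.17, adjusted p = 0.019). That call did not hold without JMJ6-OE replicate 2 (adjusted p = 0.068), without JMJ6-OE replicate 3 (0.061) and with scaling by library totals (0.49, adjusted p = 0.052). HSFC1 (Solyc12g007070.2) went from 39.2, 44.0 and 46.3 CPM to 54.0, 96.5 and 92.0 CPM (0.90 ± 0.22, adjusted p = 0.019), a call lost without WT replicate 1 (0.063), WT replicate 2 (0.058), JMJ6-OE replicate 2 (0.062) or JMJ6-OE replicate 3 (0.062).

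The class B gene described as B-2b, with the symbol HSFB2A (Solyc08g080540.3), fell from 6.02, 5.91 and 6.66 CPM to 3.66, 4.55 and 3.001 CPM (-0.73 ± 0.20, adjusted p = 0.026). Among the fits with 1 library left out, its call held only without JMJ6-OE replicate 1 or 2, with adjusted p of 0.052, 0.060, 0.074 and 0.070 without WT replicate 1, 2 or 3 and without JMJ6-OE replicate 3, and it was lost with a replicate block (0.054). The more abundant HSFB2A gene (Solyc03g026020.3) stood at 120, 102 and 102 CPM in WT and at 85.8, 99.8 and 117 CPM in JMJ6-OE, with overlap (-0.09 ± 0.13, adjusted p = 0.62). With JMJ6-OE replicate 1 left out it was 0.015. The 9 HSF rows that did not pass the filter were 4 of class A and 5 of class B, and 4 of the 9 had no count in any library.

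**Figure D5:**
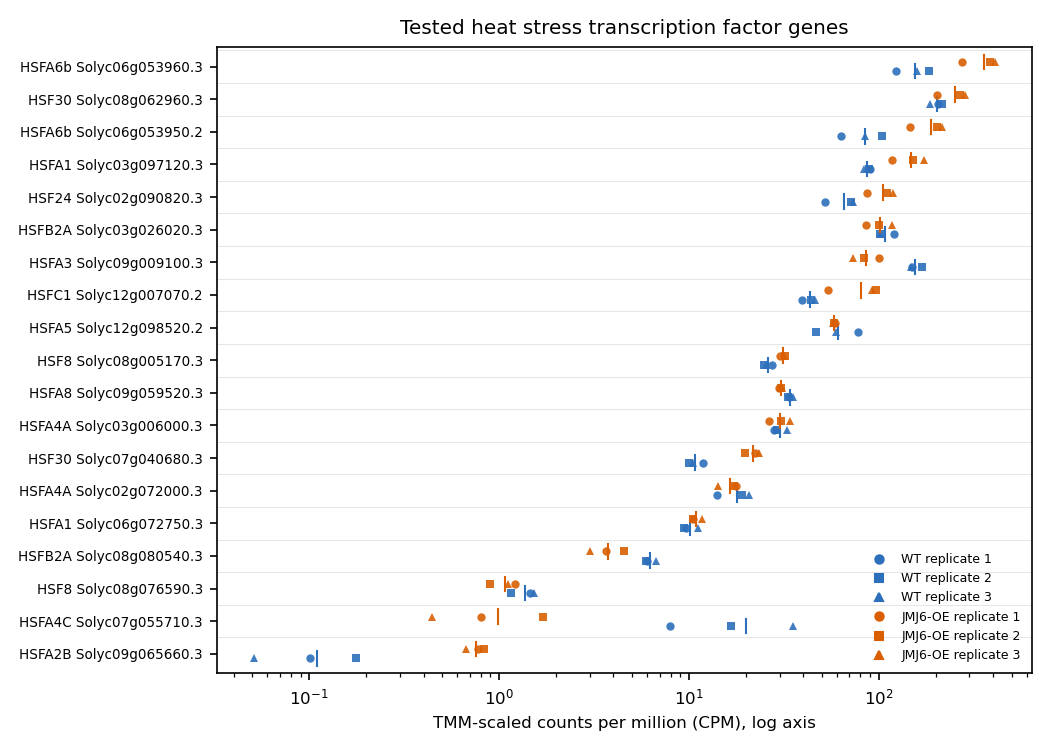
TMM-scaled CPM (log axis) of the 19 tested HSF genes, with 1 symbol per library and a short bar at each group mean. HSFA6b and HSFA1 (Solyc03g097120.3) lie higher in JMJ6-OE and HSFA3 and HSFA4C higher in WT, while the groups overlap for HSF30 (Solyc08g062960.3).

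Of the 11 other members, 7 were tested, 3 rose and 2 fell (42.9% and 28.6%, against 17.5% and 16.8% of all genes). The row described only as a heat shock protein, with the symbol CLPB3 (Solyc02g088610.3), stood at 180.5, 207 and 191 CPM in WT and at 369, 553 and 635 CPM in JMJ6-OE (log2 difference 1.43 ± 0.20, adjusted p = 0.0021). ClpB proteins pull apart protein aggregates. HSBP (Solyc01g067905.1), which binds HSFs and in Arabidopsis restrains them, went from 3.68, 3.83 and 3.09 CPM to 7.06, 6.54 and 9.60 CPM (1.13 ± 0.20, adjusted p = 0.0057). The activator of the HSP90 ATPase (ahsa, Solyc10g078930.2) rose by 0.59 ± 0.12.

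A row described by a cysteine-rich DnaJ domain (Solyc10g086570.3) fell from 43.0, 36.9 and 30.0 CPM to 22.6, 9.36 and 11.4 CPM (-1.34 ± 0.34, adjusted p = 0.026). Its call was lost without WT replicate 1 (0.069), WT replicate 2 (0.074), JMJ6-OE replicate 2 (0.064) or JMJ6-OE replicate 3 (0.088). The HSP-binding protein ATJ8 (Solyc03g117590.3), at 3.92, 4.11 and 3.24 CPM in WT, fell by 0.80 on the log2 scale, to 2.42, 1.96 and 2.08 CPM in JMJ6-OE (adjusted p = 0.022). It was not called without WT replicate 1 (0.057), WT replicate 2 (0.080), JMJ6-OE replicate 2 (0.084) or JMJ6-OE replicate 3 (0.064), or with a replicate block (0.051).

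Chaperones and co-chaperones that the descriptions do not call heat shock proteins numbered 141 rows. Of 109 tested, 32 rose (29.4%, against 17.5% of all genes) and 10 fell (9.17%), with a median log2 fold change of 0.07. By the rule the 4 with the lowest adjusted p are given. ClpB1 (Solyc03g115230.3), the HSP101 disaggregase that works with small HSPs, stood at 128, 148 and 127 CPM in WT and at 464, 786 and 869 CPM in JMJ6-OE (2.40 ± 0.24, adjusted p = 6.4e-04). The mitochondrial ClpB4 (Solyc06g011370.3) rose by 1.46 ± 0.14. The DnaJ partners of HSP70 with the symbol DnaJ-1 rose by 1.71 ± 0.18 (Solyc02g077670.3) and 0.77 ± 0.09 (Solyc07g053620.3). Of 72 tested DnaJ rows, 17 rose and 9 fell (23.6% and 12.5%, against 17.5% and 16.8% of all genes). Of the 72, 3 rose and 5 fell by at least 2-fold, against 1163 and 1806 of all 20143 tested genes. These counts are not read as a trait of DnaJ genes. One that fell was an abundant gene with the symbol DNAJ1 (Solyc05g055160.3), picked after its values were seen. It stood at 3570, 2150 and 2440.5 CPM in WT and at 1513, 1162 and 1363 CPM in JMJ6-OE (-1.01 ± 0.22, adjusted p = 0.012). Of 12 BAG regulators, which bind HSP70, 5 rose (41.7%) and none fell. BAG6 (Solyc01g095320.3), picked here after its values were seen, stood at 2013, 3148 and 2359 CPM in WT and at 7808, 12093 and 14091 CPM in JMJ6-OE (2.18 ± 0.29, adjusted p = 0.0018), with no overlap.

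A list of 17 other genes of the heat response, mostly ascorbate peroxidases, galactinol synthases and multiprotein-bridging factors, held 13 tested genes, of which 2 rose and 2 fell (15.4% each, near the 17.5% and 16.8% of all genes). The values that follow are therefore given as a description of single genes. APX2, a cytosolic ascorbate peroxidase that removes hydrogen peroxide (Solyc09g007270.3), went from 279.5 ± 17.3 to 987 ± 295 CPM (mean ± SD, n = 3, log2 fold change 1.82 ± 0.22, adjusted p = 0.0013 by edgeR). The peroxisomal APX3 (Solyc02g083630.3) rose by 2.95 ± 0.45 at low level, to a JMJ6-OE level of 2.997 ± 1.38 CPM (mean ± SD, n = 3). The transcriptional coactivator MBF1B (Solyc12g014290.2) had a log2 fold change of -0.36 ± 0.08, which did not pass when JMJ6-OE replicate 2 was left out (adjusted p = 0.064).

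What the members share beyond the words of their descriptions could be read from the table's orthologue column. Of the 31 small HSP rows, 25 carried the same KEGG orthologue, and 13 of the 20 HSP70 rows shared another. By the chromosome number in their identifiers, 5 small HSP rows each stood on chromosomes 3 and 8 and 4 each on chromosomes 6 and 9. Called and uncalled genes stood on the same chromosome, where HSP18.2 and HSP17.4A of chromosome 9 rose and HSP18.5-C was not called. On chromosome 8 HSP23 rose, and HSP24.1, whose identifier stands close to it (Solyc08g078720.3), was not called, at 41.7 ± 3.29 CPM for WT against 40.6 ± 5.26 CPM for JMJ6-OE (mean ± SD, n = 3, adjusted p = 0.83 by edgeR).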

How the data were processed

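Per the submitters' processing notes reads were aligned with HISAT2. For its version, the counter, build, annotation and strandedness the sources used here give nothing. Per the file headers, the deposited table holds for each gene and library a count and an FPKM made by the authors. It also holds the authors' log2 fold change, p-value and false discovery rate, which were not used. No sequence or genome was at hand, so no promoter was searched.

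Counts were tested as deposited with edgeR 4.0.16 in R 4.3.3 (filterByExpr with minimum count 10, TMM scaling, robust quasi-likelihood test of genotype) over all 20143 genes kept, with Benjamini-Hochberg adjustment. SE is the absolute log2 fold change over the root of F. CPM are on TMM-scaled sizes. The biological coefficient of variation common to all genes was 0.21. FPKM were used for levels between genes and carry no TMM factor. Floors cover counting error only. The functions were tested on simulated counts.

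Classes follow descriptions, where HSF means a described factor and the HSF-binding protein counts as other. By rule, values per library are given for called members by adjusted p (up to 10 small HSPs, 6 HSP70, 6 HSP90, 8 HSFs and 4 others) and for the 2 members per class with the highest FPKM. The other called members, HSP24.1, HSP18.5-C and the HSF30, HSFB2A and HSC-I genes that were not called were named after their values were seen. The members, lists and rules were chosen with earlier results of these data known. The co-chaperone pattern matched 175 rows, of which 141 remained after species names and other proteins (copper chaperones, F-box proteins) were left out, and 39 rose and 12 fell among the whole 175. The heat response pattern matched 19 rows, of which 17 remained. Alternatives were RLE, upper-quartile and library-total scaling, DESeq2 1.42.0, limma-voom 3.58.1, other filters, limma on log2(FPKM + 1), a block for the replicate number, and fits without each library in turn. Figures were drawn with matplotlib 3.10.9.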

Additional observations from a re-analysis of the deposited data

How the results depend on the processing

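No called member changed its direction in any of the alternatives run, and 43 of the 55 calls held wherever the gene was tested, the 17 small HSPs called higher among them. Of these 43, HSFA2B had no value with the filter of at least 1 CPM in 3 libraries, and 42 had a value in every alternative. With libraries scaled by their totals alone, chosen after seeing the data, the median of all genes moved from -0.01 to -0.20 on the log2 scale, 2231 genes were higher and 4949 lower in place of 3517 and 3394, and 38 members were higher and 14 lower. The calls lost were those of HSP70-16, HSP90-6, HSF24 and HSF8. With limma on log2(FPKM + 1) the counts of members were also 38 and 14, the same 4 calls were lost, of all genes 2267 were higher and 5057 lower, and the median of all genes was -0.16. Leaving out 1 library at a time gave 35 to 44 members higher and 9 to 13 lower, and 5 to 10 HSFs higher, while of all genes 2027 to 4169 were higher and 2046 to 3962 lower, the fewest without JMJ6-OE replicate 2. The cause of these losses was not tested. Signs were followed in the called members and in some of those without a call, and 4 of the latter reversed. The other members without a call, HSP24.1 among them, were not followed. With 1 library left out, Solyc03g026020.3 ranged from -0.21 to 0.015, Solyc01g103450.3 from -0.11 to 0.062 and Solyc11g066060.2 from -0.11 to 0.23. By library totals and with FPKM, Solyc11g066060.2 stood at -0.072 and -0.093 and Solyc09g011710.3 at -0.034 and -0.031. Replicate numbers are shared by the groups, and whether they pair the libraries is not known. Deviations of same-numbered libraries correlated at 0.094, 0.078 and -0.082, and not every library correlated best with its own number. With so few libraries these values cannot decide whether the libraries are paired. With the replicate block 41 members were higher and 11 lower, against 3024 higher and 2964 lower of all genes, and the calls of HSF8, HSFB2A (Solyc08g080540.3) and ATJ8 were lost. What size of change could be detected in members under 1 CPM was not tested.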
